A study of Mus musculus with 12 samples.

Results

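The guanylate-binding proteins (GBPs) and the immunity-related GTPases (IRGs) are families of GTP-hydrolyzing proteins that interferons switch on in macrophages. The genes described are Gbp2, Gbp3, Gbp5, Gbp6, Gbp7, Gbp8, Igtp, Irgm1, Irgm2 and Iigp1, 10 in all. They were looked up in microarray data by symbol, keeping probe sets (groups of short probes for one transcript) annotated to that symbol alone. This gave 9 of the 10 genes with 13 probe sets, out of 18193 genes with 34945 such probe sets. Gbp5 was not analysed here. For a gene with more than 1 such probe set, the brightest over all arrays was taken.

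The cells were bone marrow-derived macrophages (BMDMs) of female C57BL/6 mice, grown for 7 days in M-CSF. There were 4 groups of 3 arrays: LPS-stimulated ΔTrspM cells, LPS-stimulated control cells, unstimulated ΔTrspM cells and unstimulated control cells, with LPS given for 4 h. ΔTrspM cells (KO in the plots) carried Trsp fl/fl together with LysM-Cre+/-, and control cells carried Trsp fl/fl with no Cre (LysM-Cre-/-), so that both genotypes had floxed alleles of Trsp, the gene of the selenocysteine tRNA without which selenoproteins are not made. Cre under the lysozyme M promoter acts in macrophages and other myeloid cells, and since the control cells carried no Cre, the loss of Trsp and the presence of Cre cannot be told apart. The level of Trsp itself was not analysed here. The labels call the 3 arrays of a group biological replicates and do not say if each is a mouse of its own. The p-values therefore cover the spread among these arrays, part or all of which may be technical. Values are log2 of the quantile-normalized signal plus 16, which puts a signal of 0 at 4, and they are compared within a gene only.

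Interferon-γ switches on genes that carry GAS elements, and type I interferons switch on genes that carry interferon-stimulated response elements (ISREs). LPS makes macrophages secrete interferon-β, which then acts back on the same cells. In mice, GBPs and IRGs collect on the vacuoles of parasites such as Toxoplasma gondii and of some bacteria and help to break them open, and GBPs also help to start the inflammasome response to cytosolic bacteria. The IRGs fall into effectors that coat such vacuoles, of which Iigp1 (Irga6) is one, and the regulators Irgm1, Irgm2 and Igtp (Irgm3), which sit on the membranes of the host and hold the effectors inactive there.

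The genes lie in clusters. In the mouse annotation (GRCm38.p6) Gbp2, Gbp3, Gbp5 and Gbp7 lie on chromosome 3, where Gbp5, Gbp7 and Gbp3 follow each other and Gbp2b lies between Gbp3 and Gbp2. Gbp6 and Gbp8 lie in the cluster of chromosome 5, and the 3 regulators lie on chromosome 11, with Igtp and Irgm2 side by side. Members of these clusters are close copies, so a probe set can bind RNA of a neighbouring copy as well. How far this went was not tested.

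The stretches of promoter that hold the ISRE core are shown because 7 of the 10 genes have a promoter entry in RefSeq (250 bases before the start to 50 after it, GRCm38.p6) and all 7 hold this motif there. The motif searched was GAAA, any 2 bases and GAAA again, on both strands, and 3.44% of 32851 promoters of the same length hold it. Capitals mark the match, or overlapping matches, and each stretch is read 5′ to 3′ in the direction of its gene.
Gbp5, chr3:142496744-142496803, plus strand: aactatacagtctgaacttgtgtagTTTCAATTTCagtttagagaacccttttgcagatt
Gbp7, chr3:142530258-142530317, plus strand: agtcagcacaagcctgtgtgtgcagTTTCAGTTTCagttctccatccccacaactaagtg
Gbp3, chr3:142559974-142560039, plus strand: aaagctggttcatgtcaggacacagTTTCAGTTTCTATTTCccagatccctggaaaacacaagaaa
Gbp2, chr3:142620579-142620638, plus strand: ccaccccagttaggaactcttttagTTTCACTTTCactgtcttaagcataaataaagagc
Irgm1, chr11:48871421-48871475, minus strand: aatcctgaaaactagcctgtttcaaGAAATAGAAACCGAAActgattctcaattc
Igtp, chr11:58199497-58199555, plus strand: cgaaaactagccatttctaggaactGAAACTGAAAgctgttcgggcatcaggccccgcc
Irgm2, chr11:58214888-58214947, plus strand: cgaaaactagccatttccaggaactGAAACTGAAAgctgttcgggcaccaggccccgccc
The 4 GBP genes carried the match on the opposite strand of the gene and the 3 regulators on the same strand. The first matched base lay at -59 from the start in Gbp2, -53 in Gbp7, -45 in Gbp3, -64 in Irgm2, -34 in Igtp, -30 in Irgm1 and -165 in Gbp5. Gbp3 has a second promoter entry, which holds no match. Igtp and Irgm2 share almost the whole stretch shown. The longest run of identical bases in their promoter entries is 61 bases and starts after the match, at -11 in Igtp and -41 in Irgm2.

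The GAS motif TTCNNNGAA, on both strands, was found in 4 of the 7 promoters (Gbp5, Gbp7, Igtp and Irgm2), against 8.3% of all promoters. The NF-kB consensus was found in 2 of the 7 (Gbp5 and Gbp2), against 8.46%. Among 14452 genes tested on the arrays that have a promoter entry the ISRE core was present in 3.63%, and among the 1034 of them that rose with LPS in control cells it was present in 8.32%. A match is a run of letters and says nothing about whether a factor was bound.

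The arrays held macrophage RNA. Csf1r, the M-CSF receptor, read between 13.31 and 13.81 on all 12 arrays and varied least of 8 macrophage markers. The summed normalized signal of the 8 ran from 62899 to 74341. The T cell markers Cd3e, Cd3g and Cd3d read between 4.22 and 5.86, near the floor of 4, and the sum of the 7 measured T and NK cell markers was 121 to 212. Markers of some other cell types were brighter, with sums of 4668 to 19197 for 7 neutrophil markers and 475 to 8522 for 8 stromal markers. Mean deposited signals were 492 to 861 on 11 arrays and 199.7 on LPS-stimulated ΔTrspM replicate 2, where 47.7% of probe sets were under 16, against 16.1% to 28.8% elsewhere. A second array stood apart for the genes described here, unstimulated control replicate 2, and the values of the members that rest on it are given with and without it.

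LPS raised 8 of the 9 genes in ΔTrspM cells and the same 8 in control cells (limma, Benjamini-Hochberg adjusted p under 0.05). Over all genes 7.29% rose in ΔTrspM cells and 7.09% in control cells. The median log2 fold change of the 9 genes was 5.32 in ΔTrspM cells and 4.60 in control cells, beside -0.03 and -0.05 over all genes. Gbp8 was the gene that did not pass. All 3 LPS-stimulated arrays were above all 3 unstimulated ones for 9 of the 9 genes in ΔTrspM cells and for 8 in control cells, as they were for 14.8% and 14.7% of all genes.

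Gbp2, a GBP found on Toxoplasma vacuoles in mouse cells, had the highest fold change of the 9 in ΔTrspM cells with 16 added before the logarithm, while with 1 added Gbp6 was above it (log2 6.67 against 6.05). It read 13.27, 13.36 and 13.55 in LPS-stimulated ΔTrspM cells and 13.60, 13.53 and 13.55 in LPS-stimulated control cells. Unstimulated, it read 7.07, 8.22 and 7.14 in ΔTrspM cells and 7.49, 11.11 and 7.40 in control cells. The LPS-stimulated and unstimulated arrays did not overlap, and the second unstimulated control array was far above the other 5 unstimulated ones. The log2 fold change with LPS was 5.92 ± 0.78 (SE, adjusted p = 0.00058) in ΔTrspM cells and 4.89 ± 0.78 (adjusted p = 0.0016) in control cells, that is 60.5-fold and 29.7-fold on this scale. These changes ranked 25th and 45th among the 18193 genes. The second Gbp2 probe set gave 6.08 in ΔTrspM cells and 4.63 in control cells.

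The other 2 measured genes of the chromosome 3 cluster moved with it. Gbp3 read 12.64, 13.05 and 13.01 in LPS-stimulated ΔTrspM cells, 12.93, 13.23 and 13.19 in LPS-stimulated control cells, 7.28, 7.43 and 7.85 in unstimulated ΔTrspM cells and 7.19, 10.01 and 7.80 in unstimulated control cells. Gbp7, which in mice takes part in the defence against mycobacteria and other bacteria, read 12.25, 12.45 and 12.59 in LPS-stimulated ΔTrspM cells, 12.83, 12.69 and 12.77 in LPS-stimulated control cells, 7.18, 7.35 and 6.81 in unstimulated ΔTrspM cells and 6.91, 9.91 and 6.54 in unstimulated control cells. For both genes every LPS-stimulated array was above every unstimulated one, and unstimulated control replicate 2 lay between them. Gbp3 rose by 5.38 in ΔTrspM cells and 4.78 in control cells, and Gbp7 by 5.32 and 4.98 (log2 fold change, adjusted p at most 0.00058 in limma). The second Gbp7 probe set gave 4.79 in ΔTrspM cells and 5.06 in control cells.

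Gbp6, of the chromosome 5 cluster, was close to the floor in unstimulated ΔTrspM cells, where it read 5.35, 5.44 and 4.41, against 6.02, 7.72 and 6.14 in unstimulated control cells. With LPS it read 10.31, 10.89 and 11.00 in ΔTrspM cells and 11.16, 11.25 and 11.28 in control cells. No ΔTrspM array reached a control array of the same stimulus. The LPS fold change was 50.8 (log2 5.67 ± 0.43, adjusted p = 1.8e-05) in ΔTrspM cells and 24.3 (log2 4.60 ± 0.43, adjusted p = 5.4e-05) in control cells. Gbp6 is the member whose fold change depended most on what is added before the logarithm, with log2 6.67 in ΔTrspM cells when 1 was added and 4.41 when 64 was added. The second Gbp6 probe set read between 4.19 and 4.32 on 5 of the 6 unstimulated arrays, close to the floor of 4, so its fold change is not given.

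The regulators had smaller fold changes than the GBPs of chromosome 3, a difference between genes that was not tested. Igtp read 13.47, 12.73 and 13.41 in LPS-stimulated ΔTrspM cells, 13.19, 12.94 and 13.52 in LPS-stimulated control cells, 8.93, 9.27 and 9.19 in unstimulated ΔTrspM cells and 9.01, 11.56 and 9.28 in unstimulated control cells. Irgm1, which mice need for resistance to mycobacteria and several other pathogens, read 12.75, 12.81 and 13.05 in LPS-stimulated ΔTrspM cells, 13.15, 12.85 and 13.13 in LPS-stimulated control cells, 9.33, 9.70 and 9.33 in unstimulated ΔTrspM cells and 9.67, 11.92 and 9.60 in unstimulated control cells. Irgm2 read 12.64, 12.32 and 12.71 in LPS-stimulated ΔTrspM cells, 12.73, 12.61 and 12.79 in LPS-stimulated control cells, 8.41, 8.47 and 8.01 in unstimulated ΔTrspM cells and 8.92, 11.43 and 8.37 in unstimulated control cells. None of the 3 overlapped between stimuli, although unstimulated control replicate 2 came within 1.18 of its LPS-stimulated counterpart for Irgm2 and within 0.93 for Irgm1. Log2 fold changes with LPS were 4.08 in ΔTrspM cells and 3.27 in control cells for Igtp, 3.42 and 2.65 for Irgm1, and 4.26 and 3.14 for Irgm2 (limma, adjusted p at most 0.0044).

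Iigp1, the effector, which lies apart from the others on chromosome 18, read 11.78, 11.51 and 12.45 in LPS-stimulated ΔTrspM cells and 13.43, 11.97 and 12.86 in LPS-stimulated control cells. Its unstimulated values were 6.30, 6.63 and 6.75 in ΔTrspM cells and 6.70, 9.22 and 6.28 in control cells. It varied most of the 9 among LPS-stimulated control arrays, with an SD of 0.74 (n = 3), and replicate 2 was the lowest LPS-stimulated array of both genotypes. It rose by log2 5.36 ± 0.65 in ΔTrspM cells (adjusted p = 0.00035) and 5.36 ± 0.65 in control cells (adjusted p = 0.00031), 40.9-fold and 41.0-fold. The second Iigp1 probe set gave 5.48 in ΔTrspM cells and 5.21 in control cells.

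Gbp8, the other gene of the chromosome 5 cluster, responded little. It read 5.65, 5.88 and 5.56 in LPS-stimulated ΔTrspM cells and 7.25, 6.72 and 6.45 in LPS-stimulated control cells, against 5.25, 5.53 and 4.45 in unstimulated ΔTrspM cells and 6.17, 6.80 and 6.48 in unstimulated control cells. The stimuli overlapped in control cells and did not in ΔTrspM cells. The log2 fold change with LPS was 0.62 in ΔTrspM cells (95% interval -0.05 to 1.29, adjusted p = 0.21) and 0.32 in control cells (-0.35 to 1.00, adjusted p = 0.55).

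**Figure D1:**
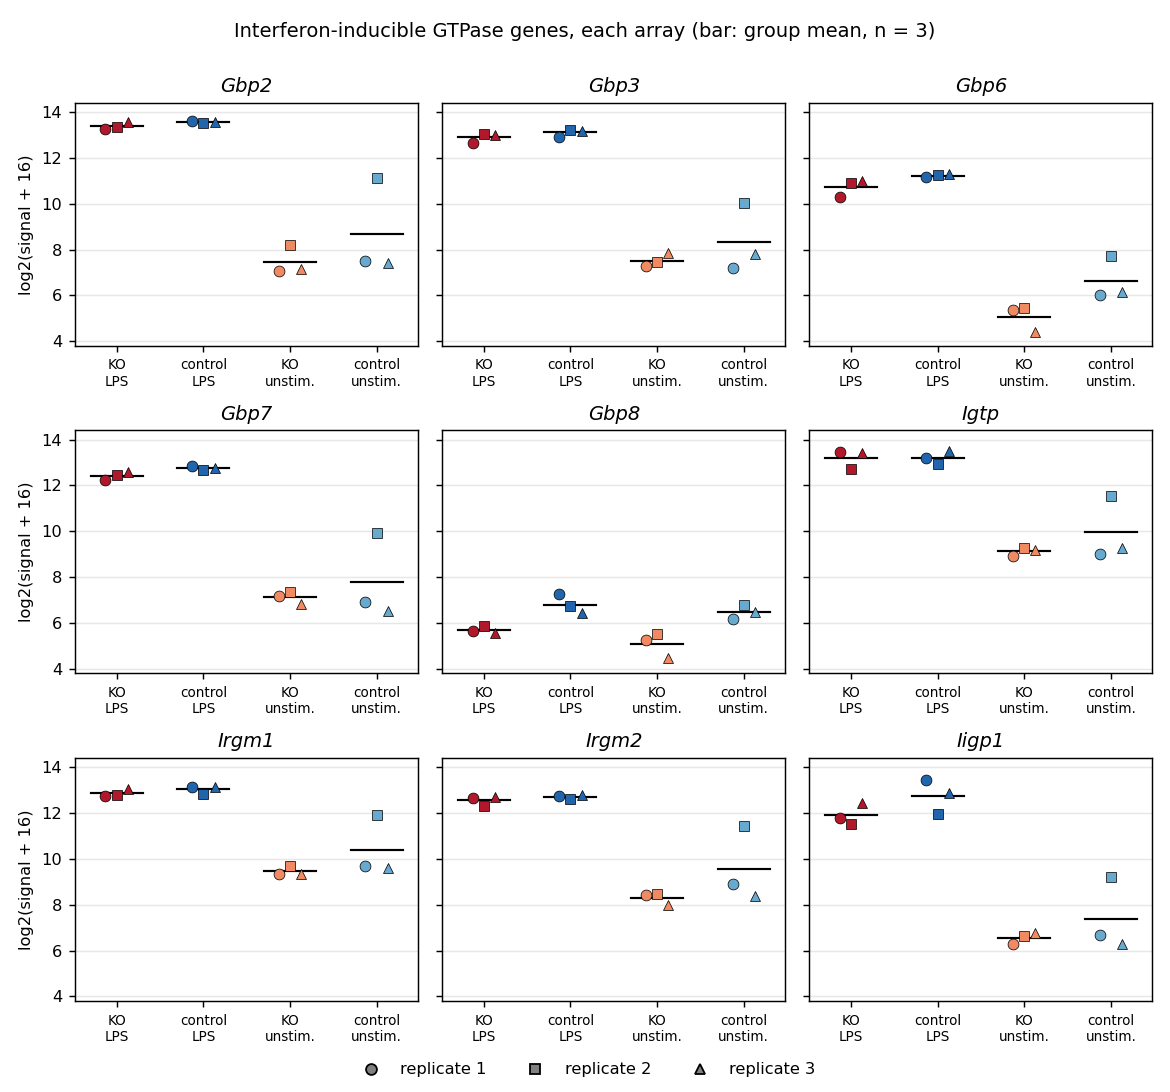
Log2 signal (quantile-normalized signal plus 16) of the 9 measured genes on each of the 12 arrays, by group, with the replicate number as the shape and the group mean as a bar. Every gene but Gbp8 lies higher on all 6 LPS-stimulated arrays than on all 6 unstimulated ones, and the square of unstimulated control cells (replicate 2) stands above the other unstimulated arrays.

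**Figure D2:**
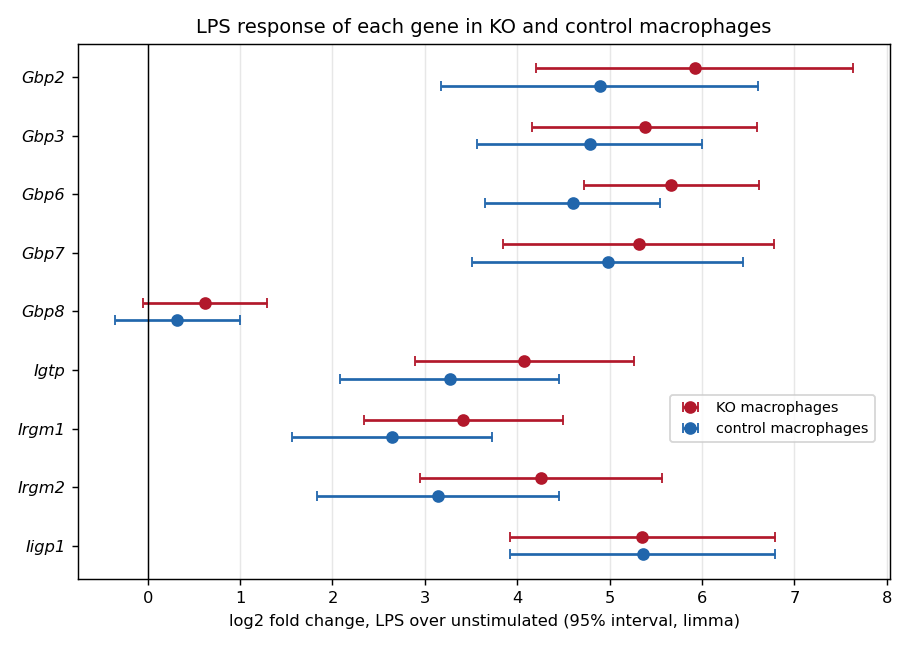
Log2 fold change of LPS-stimulated over unstimulated cells for each gene, with 95% intervals from limma (n = 3 arrays per group), ΔTrspM (KO) cells above control cells. The intervals of 8 genes lie above 0 in both genotypes and those of Gbp8 span it.

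The genes around this pathway were counted from lists of known components. Of 9 interferon ligands, receptors and kinases, 3 rose with LPS in ΔTrspM cells and 3 in control cells: Ifnb1, Jak2 and Tyk2. Ifnb1, the interferon-β gene, read 10.38, 9.24 and 10.02 in LPS-stimulated ΔTrspM cells and 9.75, 8.96 and 10.07 in LPS-stimulated control cells, and its unstimulated arrays lay between 5.22 and 5.89. It rose 16.4-fold in ΔTrspM cells and 16.3-fold in control cells (adjusted p = 3.3e-05 and 2.8e-05 in limma). Ifng, the interferon-γ gene, read between 4.12 and 5.54 over all arrays, near the floor.

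Of 10 measured transcription factors of the response, 6 rose with LPS in ΔTrspM cells and 5 in control cells, and 6 in control cells without unstimulated control replicate 2. Irf1, a factor that binds ISREs, rose by log2 3.48 in ΔTrspM cells and 3.05 in control cells. Batf2 rose by 4.09 and 3.57 and Nlrc5, the activator of MHC class I genes, by 3.64 and 3.59 in the same order. Irf9 rose by 1.38 in ΔTrspM cells (adjusted p = 0.027) and read 1.04 higher in control cells with LPS (adjusted p = 0.085, but 0.0065 without that array), while Irf8, which myeloid cells hold at rest, changed by 0.27 and 0.22 without passing.

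Of 21 other measured interferon-stimulated genes, 21 rose in ΔTrspM cells and 19 in control cells with medians of log2 4.23 and 3.21. Unstimulated control replicate 2 was the highest unstimulated array for 21 of the 21, and without it 21 rose in control cells with a median of 4.10. Of 5 further interferon-inducible GTPase genes measured, 4 rose in each genotype: Mx1 by log2 6.63 in ΔTrspM cells and 5.76 in control cells, Mx2 by 6.58 and 5.87, Ifi47 by 4.46 and 3.19 and Gm4951 by 4.02 and 4.08. Without that array the values in control cells were 7.25 for Mx1, 7.45 for Mx2, 4.17 for Ifi47 and 4.55 for Gm4951. Of 5 inhibitors of the pathway, 4 rose in each genotype, among them Socs1, which blocks JAK kinases, by 5.16 and 5.17. Of 8 inflammasome genes 7 rose and 1 fell in each genotype, and Casp4 (caspase-11), the sensor of cytosolic LPS to which GBPs give access, rose by 3.65 in ΔTrspM cells and 4.23 in control cells.

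Genes that the GTPases need at the protein level were counted against all genes, of which 8.51% fell with LPS in ΔTrspM cells and 8.54% in control cells. Of 10 genes of the ATG8 conjugation system, which mouse cells need to place IRG effectors on vacuoles, 0 passed in ΔTrspM cells and 2 fell in control cells, Gabarapl1 and Atg5, with -0.86 and -0.73 (log2 fold change, adjusted p = 0.033 and 0.049). At an unadjusted p under 0.05, Atg5 and Atg12 were lower with LPS in ΔTrspM cells, at -0.64 and -0.41, against 28.5% of all genes that changed either way at that level. Of 5 prenylation genes, whose enzymes attach or finish the lipid tail of some GBPs, 0 passed in ΔTrspM cells (0 of 5 at an unadjusted p under 0.05 as well) and Icmt fell by 0.80 on the log2 scale in control cells (adjusted p = 0.021). Without unstimulated control replicate 2 these 3 calls were lost (adjusted p = 0.056 for Gabarapl1, 0.067 for Atg5 and 0.064 for Icmt), and Pggt1b, a subunit of a prenyltransferase, rose by 0.76 (adjusted p = 0.047). Markers of other cell types were called with LPS as well. Of 6 dendritic cell markers 1 rose in ΔTrspM cells (Ccr7) and 2 in control cells (Ccr7 and Zbtb46), and of 8 stromal markers 1 rose in each genotype (Pdgfrb, by 2.99 in ΔTrspM cells and 4.45 in control cells). The summed signal of the dendritic cell markers was 7345 to 8715 in LPS-stimulated ΔTrspM cells, 6134 to 10136 in LPS-stimulated control cells, 5777 to 7051 in unstimulated ΔTrspM cells and 4193 to 9442 in unstimulated control cells. Of 7 neutrophil markers 1 rose in each genotype (Camp). Their summed signal was 7864 to 19197 in LPS-stimulated ΔTrspM cells, 7681 to 17787 in LPS-stimulated control cells, 4668 to 10555 in unstimulated ΔTrspM cells and 6332 to 11697 in unstimulated control cells, and the part of these cell types in the GTPase values was not tested.

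The second question of the design is whether the loss of selenoproteins moves these genes. None of the 9 passed between ΔTrspM and control cells, either unstimulated (adjusted p = 0.9999 each) or after LPS (adjusted p between 0.57 and 0.9985, limma). Over all genes, 0% passed as lower in unstimulated ΔTrspM cells and 0.011% after LPS. At an unadjusted p under 0.05, 2 of the 9 were lower in unstimulated ΔTrspM cells (Gbp6 and Gbp8) and 1 after LPS (Gbp8), against 1.27% and 2.19% of all genes. The methods' t-test at p under 0.01 found 0 of 9 for either stimulus. With 3 arrays against 3 the smallest two-sided p of an exact permutation test is 0.1. Smaller p-values rest on an assumed normal spread, which limma in addition pools over genes.

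The group means of all 9 genes were lower in ΔTrspM than in control cells with either stimulus, as were the means of 43.5% of all genes unstimulated and 44.7% after LPS. This holds for the brightest probe set of each gene. The second Gbp2 probe set was slightly higher in ΔTrspM cells after LPS (log2 fold change 0.057), while those of Gbp6, Gbp7 and Iigp1 were lower. The median log2 fold change (ΔTrspM over control) was -0.945 unstimulated and -0.22 after LPS, beside 0.035 and 0.044 over all genes. With no scaling of the arrays the median after LPS was -0.953, beside -0.596 over all genes, and with median centring it was -0.441. The unstimulated part of this rested on 1 array. Control replicate 2 read at least 1 log2 unit above all 5 other unstimulated arrays for 8 of the 9 genes, which 158 of 18193 genes did (0.868%). Without it the unstimulated median was -0.018, and in the fit paired by replicate number without replicate 2 of any group it was -0.308.

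Gene by gene, the gap between unstimulated control replicate 2 and the next highest of the 5 other unstimulated arrays was 2.89 for Gbp2, 2.56 for Gbp7, 2.51 for Irgm2, 2.47 for Iigp1, 2.28 for Igtp, 2.22 for Irgm1, 2.17 for Gbp3 and 1.58 for Gbp6. For Gbp8 it was 0.32. The same array was above the other 5 by at least 1 unit for 18 of 21 other interferon-stimulated genes, 5 of 10 transcription factors of the response and 4 of 5 further GTPase genes. The same held for 2 of 8 inflammasome genes, 2 of 5 inhibitors of the pathway and 1 of 8 macrophage markers. It was so for 0 of 9 ligands and receptors: Ifnb1 read 5.66 on it and between 5.22 and 5.89 on the others, and Ifng read 4.12 on it. It was so for 0 of 7 T and NK cell markers. Stromal markers were low on it, with a summed signal of 475, against 2469 and 7054 on the other unstimulated control arrays and 861 to 7436 on the unstimulated ΔTrspM arrays, and the part of that difference in the GTPase values was not tested.

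**Figure D3:**
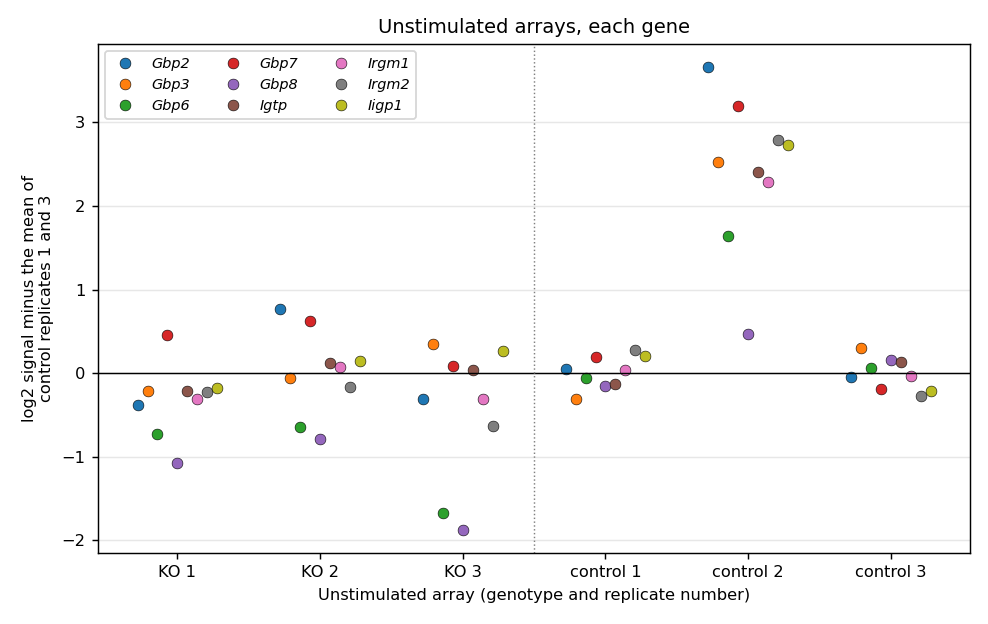
Log2 signal of each of the 9 genes on the 6 unstimulated arrays, ΔTrspM (KO) arrays left of control arrays, minus the mean of control replicates 1 and 3 of that gene. Control replicate 2 stands 1.64 to 3.66 above that mean for 8 genes and 0.47 above it for Gbp8, while Gbp6, Gbp8 and Irgm2 lie below it on all 3 ΔTrspM arrays.

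Leaving this array out split the genes. The unstimulated log2 fold change (ΔTrspM over control) was -1.19 for Gbp2 with all arrays and 0.03 without it, -0.81 and 0.03 for Gbp3, -0.67 and 0.39 for Gbp7, and -0.84 and 0.07 for Iigp1, so the direction of these 4 turned. In the paired fit without replicate 2 of any group Gbp3, Gbp7 and Iigp1 turned and Gbp2 did not, whose same-numbered pairs were -0.43, -2.89 and -0.26. For the regulators it was -0.82 and -0.02 (Igtp), -0.95 and -0.18 (Irgm1), and -1.27 and -0.35 (Irgm2). Gbp6 and Gbp8 stayed lower, at -1.56 and -1.01 and at -1.41 and -1.25. None of the 9 passed with or without the array.

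The same array set the size of the LPS response in control cells. Without it the log2 fold change with LPS in control cells was 6.11 for Gbp2, 6.04 for Gbp7, 5.62 for Gbp3, 6.27 for Iigp1, 4.07 for Igtp, 3.41 for Irgm1 and 4.07 for Irgm2, each over 1.5 times larger in fold than with all arrays. For Gbp6 it was 5.15. Without unstimulated control replicate 3 it was smaller instead for each of the 8 genes that rose, for example Gbp2 (4.26), Gbp7 (4.35) and Irgm2 (2.54). The median of the 9 genes in control cells was 4.60 with all arrays. It was 4.26 without unstimulated control replicate 3 and 4.21 without unstimulated control replicate 1. The 8 genes passed in each of these cases.

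Whether the genotype changed the LPS response itself was tested as the difference of the 2 LPS fold changes. It ranged from -0.001 (Iigp1) to 1.12 (Irgm2) on the log2 scale, and none of the 9 passed (adjusted p = 1 each, 0 of 9 at an unadjusted p under 0.05, against 0% and 3.05% of all genes). The 95% interval of this difference was -0.73 to 2.97 for Irgm2 and -1.40 to 3.45 for Gbp2, so that a difference of several fold either way could not be told from none for Gbp2. For Gbp8 it was -0.66 to 1.25. Without unstimulated control replicate 2 the difference ranged from -0.91 (Iigp1) to 0.52 (Gbp6), with 0.19 for Irgm2 and -0.20 for Gbp2, and none passed (adjusted p = 0.9998 each).

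After LPS the group means of the genotypes differed least for the measured genes of chromosome 3 and the regulators. The log2 fold change (ΔTrspM over control) was -0.17 for Gbp2 (95% interval -1.88 to 1.55), -0.22 for Gbp3, -0.34 for Gbp7, -0.015 for Igtp, -0.17 for Irgm1 and -0.15 for Irgm2. Iigp1 read -0.84 (-2.27 to 0.59) and Gbp6 -0.49 (-1.44 to 0.45). These intervals rest on a spread fitted over all 4 groups, so unstimulated control replicate 2 widens them although it is not in this comparison. For Gbp2 the SD was 0.15 in LPS-stimulated ΔTrspM cells, 0.04 in LPS-stimulated control cells and 2.11 in unstimulated control cells (n = 3 each). No overlap between genotypes was seen for 3 of the 9 genes, Gbp6, Gbp7 and Gbp8, each lower in ΔTrspM cells, as were 3.77% of all genes. The second probe sets of Gbp6 and Gbp7 did overlap between genotypes after LPS. Without the dim LPS-stimulated ΔTrspM replicate 2 the value for Igtp turned to 0.22, and without LPS-stimulated control replicate 3 it turned to 0.14.

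**Figure D4:**
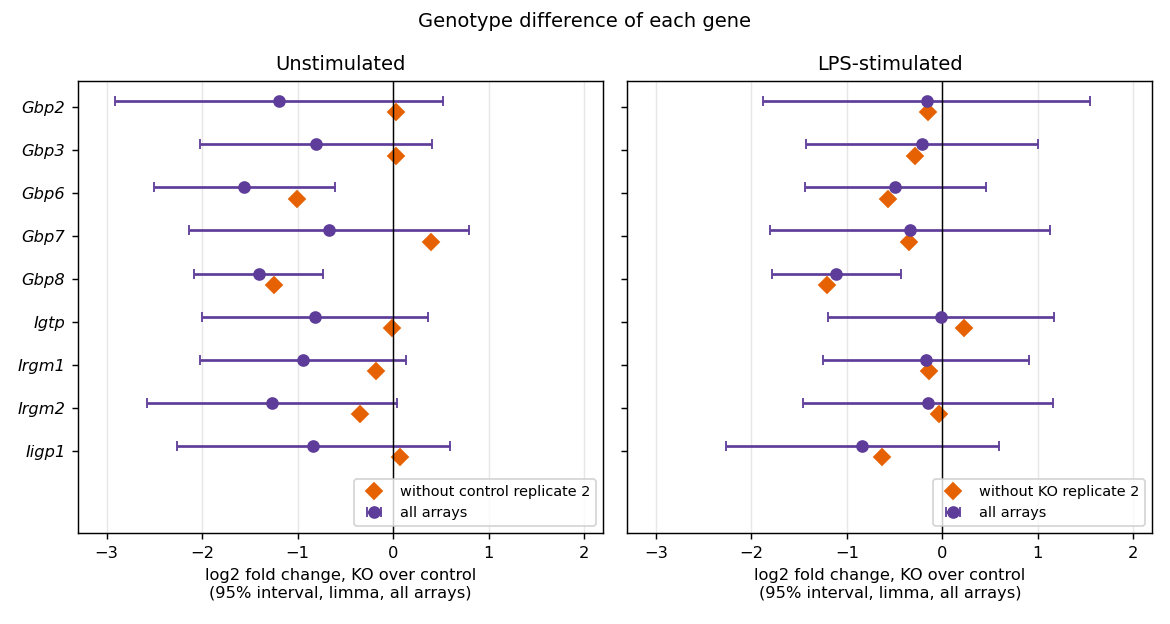
Log2 fold change of ΔTrspM (KO) over control cells for each gene, unstimulated on the left and LPS-stimulated on the right, with 95% intervals from limma on all arrays (circles, n = 3 per group) and the value without the array that stood apart in that stimulus (diamonds). In unstimulated cells the diamonds of 7 genes lie between -0.35 and 0.39, and those of Gbp6 and Gbp8 at -1.01 and -1.25.

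Gbp6 and Gbp8 were the genes whose genotypes did not overlap with either stimulus. The ΔTrspM arrays of Gbp8 were below its control arrays of the same stimulus in 6 of 6 comparisons of equal replicate number, which was also so for Gbp6, Irgm1 and Irgm2. The share of all genes with such pairs was not counted, and the second unstimulated pair of each gene includes control replicate 2. No overlap with either stimulus, with ΔTrspM cells lower, held for 0.28% of all genes. Of the 9 genes, 2 (Gbp6 and Gbp8) had all unstimulated ΔTrspM arrays below all control ones, as had 3.17% of all genes. Averaged over both stimuli the log2 fold change of Gbp8 was -1.26 (95% interval -1.74 to -0.78), that is 0.418 times the control level, with an unadjusted p of 0.000114 and an adjusted p of 0.26 in limma, so it did not pass, while 0.0165% of all genes passed as lower. Over the alternatives tried the adjusted p in limma ran from 0.11, in the fit with the replicate number as a block, to 0.61. The value ran from -1.76 to -0.71, its 2 ends being 1 and 64 added before the logarithm. Its signals were dim: as deposited they were 23.9, 11.5 and 39.7 in LPS-stimulated ΔTrspM cells, 152.7, 54.1 and 84.3 in LPS-stimulated control cells, 22.3, 23.8 and 9.2 in unstimulated ΔTrspM cells and 72.1, 109.9 and 88.3 in unstimulated control cells.

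Gbp6 was lower in ΔTrspM cells in every same-numbered pair as well, with differences of -0.67, -2.29 and -1.73 unstimulated and -0.85, -0.36 and -0.28 after LPS (log2, replicates 1 to 3). Irgm1 and Irgm2 were lower in 3 of 3 pairs with either stimulus, and Gbp2 and Igtp in 3 of 3 unstimulated and 2 of 3 after LPS. Iigp1 was lower in 2 of 3 unstimulated pairs, Gbp3 and Gbp7 in 1 of 3, and all 3 genes in 3 of 3 after LPS. These pair counts have no share over all genes beside them and are a description only. The second Gbp6 probe set had a log2 fold change (ΔTrspM over control) of -1.19 unstimulated, where its arrays did not overlap, and of -0.67 after LPS, where they did. Its unstimulated ΔTrspM arrays and control replicates 1 and 3 lay between 4.19 and 4.32, close to the floor of 4, and control replicate 2 alone was above them, at 7.58.

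Apart from Gbp8, the genes varied together. Over the 12 arrays, after subtraction of group means, Pearson's r between pairs of the 8 was 0.67 to 0.986 (28 pairs), and between Gbp8 and each of them 0.213 to 0.617. These are descriptions over arrays that share their scaling, and unstimulated control replicate 2 holds the largest deviations. Among the 11618 other genes whose log2 signal averaged 6 or more, those most like the mean of the 9 over 12 arrays were Ifih1, which senses double-stranded RNA (r = 0.9972), Mx1 (0.9966), Zup1 (0.9954), Oasl1 (0.994) and Cxcl9 (0.9938). For deviations from group means they were Ifih1 (0.994), Ifit2 (0.9919), Ddx58 (0.9916), Mx1 (0.991) and Ifi209 (0.9885), with 0.74 to 0.88 for these 5 without unstimulated control replicate 2. As these are whole cultures, fewer cells of a kind and less RNA per cell cannot be told apart in any of these values.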

How the data were processed

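Total RNA of BMDMs was hybridized to 12 GeneChip mouse arrays (4 groups of 3). The deposited values are linear signal intensities of 45101 probe sets, which the authors normalized with Expression Console. The way probes were summarized is not stated in the sources used here. Control probe sets (64) were left out. Of the rest, 34945 carried 1 gene symbol in the platform annotation, 932 several and 9160 none, and those with 1 symbol were used, the brightest for each gene (18193 genes). Signals were quantile-normalized, 16 was added and log2 was taken, so fold changes of dim genes are understated. Precision is limited by the number of arrays.

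The 4 groups were fitted together in limma 3.58.1 (R 4.3.3, 8 residual degrees of freedom) with Benjamini-Hochberg adjustment over all genes and a threshold of 0.05. Each SE, interval and p-value thus holds the spread within all 4 groups, also where unstimulated control replicate 2 is not among the arrays compared. The fit was run on simulated data with independent normal noise for each gene. These data held no outlying array and no correlation by replicate number, so they cannot show how the fit behaves on the real arrays. After group means were removed, arrays of the same replicate number correlated at 0.126 to 0.442 in 12 of 12 pairs, each above the required 0.1, so the numbers were taken to pair the cultures, and a fit with the number as a block was one alternative. The others were other probe set rules, a filter at a mean log2 signal of 6, median centring or no scaling, 1 or 64 added, a fit of the compared arrays alone, the methods' t-test, limma's trend and robust options, and each array left out. The members and lists were chosen with earlier results of these data known. The text names every member, up to 3 genes with the smallest p of each list, Ifnb1, Ifng, Irf1, Irf8 and Irf9, and the 5 genes most like the members by each measure. A gene that this rule also covers is not reported here. Promoters came from RefSeq and plots were drawn with matplotlib 3.10.9.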

Additional observations from a re-analysis of the deposited data

How the results depend on the processing

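LPS passed for 8 genes in all 26 alternatives in ΔTrspM cells and in 24 of 26 in control cells. The exceptions were the methods' t-test, with 4 genes at p under 0.01 and 1 after Benjamini-Hochberg adjustment in control cells. The cause was not tested. No member passed between genotypes, or in the difference of LPS responses, in any alternative. The median log2 fold change with LPS in ΔTrspM cells was 4.41 with no scaling (4.407) and with 64 added (4.408). With no scaling the median of all genes moved to -0.726 for LPS in ΔTrspM cells, -0.248 for LPS in control cells, -0.596 for ΔTrspM over control after LPS, -0.331 for its mean over both stimuli and -0.587 for the difference of LPS responses. Median centring moved the last to -0.176. The replicate block, which pairs arrays by number, changed no call of the 9 genes. It cannot change their log2 fold changes, as each number occurs once in every group, so Gbp8 stayed at -1.26 over both stimuli (adjusted p = 0.108). Over all genes it called 4086 with LPS in ΔTrspM cells, beside 1326 higher and 1548 lower in the main fit. In control cells it called 4108, beside 1290 higher and 1554 lower. In the block fit without replicate 2 of any group, ΔTrspM over control turned to 0.071 (Gbp3), 0.271 (Gbp7) and 0.039 (Iigp1) unstimulated and 0.082 (Igtp) after LPS.

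With single arrays left out, the median unstimulated log2 fold change (ΔTrspM over control) ran from -1.397 to -0.018, that after LPS from -0.304 to -0.178, that with LPS in ΔTrspM cells from 5.086 to 5.405 and in control cells from 4.212 to 5.148. The unstimulated log2 fold change (ΔTrspM over control) ran from -1.826 to 0.029 for Gbp2, -1.384 to 0.028 for Gbp3, -1.299 to 0.39 for Gbp7 and -1.397 to 0.073 for Iigp1, each positive without control replicate 2 alone. That of Igtp after LPS ran from -0.155 to 0.222, positive without control replicate 3 (0.137) or ΔTrspM replicate 2 (0.222). Leaving out both unstimulated control replicate 2 and LPS-stimulated ΔTrspM replicate 2, chosen after the data were seen as was the count of the lists without the first of these, gave a median of -0.018 unstimulated, with 0.029 (Gbp2), 0.028 (Gbp3), 0.39 (Gbp7) and 0.073 (Iigp1), and 0.222 for Igtp after LPS. The difference of LPS responses changed sign for 5 of 9 genes in at least 1 of 23 alternatives. Dim signals limit Gbp8 and unstimulated Gbp6, whose values near the floor shrink with the amount added before the logarithm.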

Other observations

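Gbp2b, the neighbour of Gbp2 and Gbp3 on chromosome 3, was named after its values were seen. It read 12.85, 12.77 and 5.89 in LPS-stimulated ΔTrspM cells (replicates 1 to 3) and 13.17, 6.29 and 12.80 in LPS-stimulated control cells. Unstimulated, it read 6.48, 7.29 and 4.69 in ΔTrspM cells and 6.52, 4.50 and 6.95 in control cells. The 4 high LPS-stimulated arrays were thus 6.47 or more above the other 2, ΔTrspM replicate 3 and control replicate 2, on which Gbp2 and Gbp3 were as high as on the rest. Of the 18193 genes, Gbp2b was the 1 gene with a gap of at least 3 log2 units between these arrays, and the second largest gap was 1.43. This split of the arrays was taken from the values of Gbp2b itself, so its first place is a description and no test. With LPS it did not pass in ΔTrspM cells (log2 fold change 4.35, adjusted p = 0.19) or in control cells (4.76, adjusted p = 0.15, limma).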
